A study of Mus musculus with 10 samples.

Results

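DNA methylation was examined at the loci of 4 mouse genes that encode lymphoid transcription factors, Pax5 (a stretch of 190 kb on chromosome 4), Ikzf1 (100 kb on chromosome 11), Gata3 (35 kb on chromosome 2) and Bcl11b (105 kb on chromosome 12), all in the mm9 build. Members were the CpG cytosines inside these stretches that had at least 5 reads in every library of a comparison. Over all 10 libraries this left 463 of the 5020 cytosines listed there in any library, of which 185 lay at Pax5, 60 at Ikzf1, 82 at Gata3 and 136 at Bcl11b. The same rule left 559685 of 7972927 cytosines on the 19 autosomes.

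The study profiled genomic DNA of mouse leukaemic spleen cells by reduced representation bisulfite sequencing, in which the enzyme MspI cuts at CCGG and short fragments are sequenced after bisulfite conversion. Leukaemias carried either the oncogene MLL-AF9 or the oncogene pair cMyc-Bcl2, and were either WT or carried a knockin from which the DNA methyltransferase Dnmt3b can be induced with tetracycline. There were 3 libraries of MLL-AF9 WT, 3 of MLL-AF9 knockin, 2 of cMyc-Bcl2 WT and 2 of cMyc-Bcl2 knockin, and the labels do not give the strain, age or inducer treatment of the mice. The MLL-AF9 libraries are labelled as c-kit+ spleen cells and the cMyc-Bcl2 libraries as spleen cells without that term, so the oncogene and the sorted cell fraction cannot be told apart in any comparison between the models. The labels do not say whether the libraries of a group came from separate mice, so each p-value sets a difference against the spread of these libraries alone, which may be technical. The replicate numbers used below only name libraries and were assigned here, since the labels give none. Lineage markers could not be checked as expression, since the files hold DNA methylation only, and fewer cells of a type and lower methylation per cell cannot be told apart in bulk DNA.

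Pax5 commits progenitors to the B lineage and holds B cells in that state. Ikzf1 encodes Ikaros, a zinc finger factor needed for the lymphoid lineages from an early progenitor stage, while Gata3 and Bcl11b act in the T lineage, Gata3 from the earliest thymic stages and Bcl11b at commitment. Promoters of such regulators often lie in CpG-rich DNA that is unmethylated in most cells, and methylation of the DNA around them differs between cell types.

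The promoters were shown by RefSeq sequence (GRCm38.p6) and placed on the mm9 positions of the files by the spacing of their CpGs. For Ikzf1 all 100 listed positions in the 300-base sequence fell on its CpGs, against 17 at the next best place on the chromosome. For Gata3 28 positions did, against 12. The 250 bases before the gene start are printed for these genes because they hold promoter cytosines that were read in all 10 libraries. Capitals mark the CpGs of which at least 1 strand had 5 or more reads in every library.
Ikzf1 promoter: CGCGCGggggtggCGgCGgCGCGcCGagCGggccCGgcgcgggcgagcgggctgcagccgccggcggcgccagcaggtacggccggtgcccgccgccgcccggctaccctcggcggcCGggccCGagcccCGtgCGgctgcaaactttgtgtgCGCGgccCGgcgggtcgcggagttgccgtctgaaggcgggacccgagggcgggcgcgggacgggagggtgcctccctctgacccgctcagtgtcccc
Gata3 promoter: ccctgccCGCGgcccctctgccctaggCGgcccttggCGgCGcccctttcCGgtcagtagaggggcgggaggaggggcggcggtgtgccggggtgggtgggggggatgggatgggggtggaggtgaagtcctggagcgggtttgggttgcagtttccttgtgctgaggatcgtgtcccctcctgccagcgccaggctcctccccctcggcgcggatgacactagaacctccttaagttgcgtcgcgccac
The Ikzf1 sequence has 45 CpGs, 17 of them read in every library, and holds the MspI site CCGG 6 times. The Gata3 sequence has 19 CpGs, 6 of them read in every library, and 2 MspI sites. Over the 31396 autosomal promoter sequences of the table, 47.75% hold at least 1 CCGG in these 250 bases. The Pax5 promoter was placed with 23 listed positions against 11 at the next best place and has 1 CCGG, but none of its cytosines was read in all libraries. The Bcl11b promoter was placed with only 8 listed positions against 7 elsewhere on the chromosome, and 0 elsewhere within its own locus. None of its cytosines was read in all libraries, so distances at Bcl11b rest on a weak placement.

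Mean methylation of the Pax5 cytosines was low in 8 libraries and higher in the cMyc-Bcl2 knockin libraries. It was 17.1, 13.8 and 16.4% in the MLL-AF9 WT libraries and 16.4, 18.2 and 16.1% in the MLL-AF9 knockin libraries. It was 17.9 and 16.4% in cMyc-Bcl2 WT and 28.6 and 36.5% in cMyc-Bcl2 knockin. The cMyc-Bcl2 knockin libraries stood above all others, while the other groups overlapped on these cytosines. On the 211 cytosines covered in the 5 WT libraries, the cMyc-Bcl2 WT libraries (18.02 and 17.4%) were above the MLL-AF9 WT libraries (17.1, 13.8 and 16.5%) by 1.89 points (exact permutation p = 0.2). The model difference, cMyc-Bcl2 minus MLL-AF9 averaged over genotypes, was 8.51 points (p = 0.03, exact two-sided permutation of oncogene labels within genotype over 100 arrangements, smallest possible p 0.01). It was 1.37 points among WT libraries and 15.7 points among knockin libraries. Leaving out 1 library left fewer arrangements and moved the exact permutation p to 0.075 without replicate 1 of cMyc-Bcl2 WT (8.12 points) or replicate 1 or 2 of cMyc-Bcl2 knockin (10.5 and 6.54 points). It was 0.05 without replicate 2 of MLL-AF9 WT (8.02 points) and 0.1 without any 1 of the MLL-AF9 knockin libraries (8.31 to 8.83 points). With 20 reads per cytosine the difference was 5.31 points and with each 1-kb window weighted once 4.10 points (exact permutation p = 0.23 and 0.13). At 20 reads only cytosines from chr4:44717059 to chr4:44717101, in 1 window, remained. Of the 185 cytosines, 154, 151 and 146 had group means under 20% in MLL-AF9 WT, MLL-AF9 knockin and cMyc-Bcl2 WT, and 80 did in cMyc-Bcl2 knockin. The cytosines were clustered, with 57, 41 and 30 of them in single 1-kb windows, so these counts largely reflect a few windows. The knockin minus WT difference at Pax5 was 8.25 points, with 1.105 for MLL-AF9 and 15.4 for cMyc-Bcl2 (exact permutation p = 0.0833).

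Ikzf1 had the lowest means, over covered cytosines that nearly all lay from 549 bases before to 125 bases after the gene start. The rest of the stretch was covered only at chr11:11583770, chr11:11596620 and chr11:11596695, with group means of 37.4 to 96.3%. The model difference at Ikzf1 was present in both genotypes. The MLL-AF9 WT libraries had means of 7.17, 3.94 and 5.72% and the MLL-AF9 knockin libraries 5.75, 5.75 and 5.54%. The cMyc-Bcl2 WT libraries had 11.8 and 7.97% and the cMyc-Bcl2 knockin libraries 9.83 and 6.88%. Within each genotype every cMyc-Bcl2 library was above every MLL-AF9 library. The difference was 3.49 points, with 4.30 among WT and 2.67 among knockin libraries (exact permutation p = 0.01, the smallest these arrangements can give). It was 6.195 points with at least 10 reads per cytosine (exact permutation p = 0.01) and 5.41 points with each window weighted once (exact permutation p = 0.18). On the cytosines of each genotype's own comparison the difference was 3.87 points among WT libraries (68 cytosines) and 1.40 points among knockin libraries (119 cytosines), again without overlap (exact permutation p = 0.1 each, the smallest that 2 against 3 allow). Such separation in both genotypes, with cMyc-Bcl2 above, was seen in 8.20% of 7040 autosomal stretches of 100 kb with at least 20 cytosines. The knockin minus WT difference at Ikzf1 was -0.745 points (exact permutation p = 0.6).

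Gata3 had means of 34.0, 39.3 and 36.9% in MLL-AF9 WT, and 40.1, 41.2 and 42.8% in MLL-AF9 knockin. In cMyc-Bcl2 WT it had 39.3 and 35.9%, and in cMyc-Bcl2 knockin 53.0 and 43.6%. Here the knockin libraries were above the WT libraries of the same model without overlap, with 4.63 points for MLL-AF9 and 10.7 points for cMyc-Bcl2 (mean 7.65, p = 0.0167, exact two-sided permutation of genotype labels within oncogene over 120 arrangements, the smallest possible). Knockin libraries stood above WT libraries in both models in 18.4% of the 100-kb stretches. The exact permutation p was 0.05 without replicate 1 and 0.1 without replicate 2 of cMyc-Bcl2 WT, and 0.117 with each window weighted once (5.22 points). It was 0.483 at 20 reads and 0.05 with the strands of a CpG joined. The model difference at Gata3 was 3.92 points (exact permutation p = 0.11). It was 1.56 points without replicate 1 and 6.27 without replicate 2 of cMyc-Bcl2 knockin, 0.167 with cytosines weighted by reads, 1.47 with each window weighted once, 7.43 at 10 reads and 17.8 at 20 reads. The exact permutation p was 0.03 and 0.02 at these read minimums and 0.95 when weighted by reads. At 20 reads the Gata3 values rested on the cytosines chr2:9804299 and chr2:9804321 alone and do not describe the whole locus.

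Bcl11b had means of 40.2, 41.7 and 37.5% in MLL-AF9 WT, 47.2, 40.8 and 41.9% in MLL-AF9 knockin, 35.8 and 37.6% in cMyc-Bcl2 WT, and 48.4 and 49.5% in cMyc-Bcl2 knockin. The cMyc-Bcl2 knockin libraries were the highest of the 10, and the MLL-AF9 groups overlapped on these cytosines. On the 187 cytosines covered in the 6 MLL-AF9 libraries they did not, with 45.4, 45.9 and 43.05% in WT and 52.0, 47.8 and 47.0% in knockin (4.13 points, exact permutation p = 0.1, the smallest that 3 against 3 allow). The knockin difference was 7.88 points (3.49 for MLL-AF9 and 12.3 for cMyc-Bcl2, exact permutation p = 0.0333). Without replicate 1 or 3 of MLL-AF9 WT, or replicate 1 or 3 of MLL-AF9 knockin, the exact permutation p was 0.0667, 0.0833, 0.0667 and 0.05. With each window weighted once the difference was 5.45 points (exact permutation p = 0.0667), and at 20 reads it was 23.4 points (exact permutation p = 0.05). Only the cytosines chr12:109244305, chr12:109244310 and chr12:109244336, in 1 window, had 20 reads in all 10 libraries. The model difference was 1.27 points, made of -3.12 among WT and 5.65 among knockin libraries (exact permutation p = 0.54). Over all autosomal cytosines the model difference was 0.665 points and the knockin difference 2.61 points, of which the part was 2.28 for the MLL-AF9 libraries and 2.94 for the cMyc-Bcl2 libraries.

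**Figure D1:**
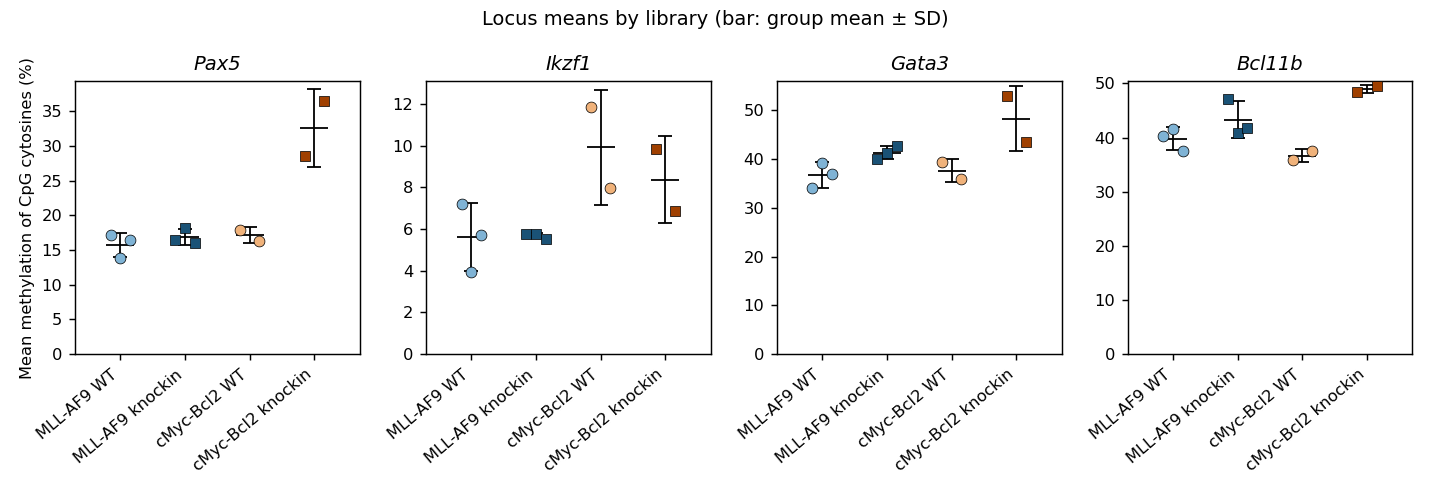
Mean methylation (%) of the covered CpG cytosines at each locus, one point per library, with the group mean and SD as bars. The cMyc-Bcl2 knockin libraries are highest at Pax5 (28.6 and 36.5%) and Bcl11b, and both cMyc-Bcl2 groups lie above the MLL-AF9 group of the same genotype at Ikzf1.

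The loci were then divided into 1-kb windows with at least 3 covered cytosines, of which 36 had values in all 10 libraries (11 at Pax5, 2 at Ikzf1, 9 at Gata3 and 14 at Bcl11b). A window was called between the models when a quasi-binomial model with oncogene and genotype terms and limma-moderated dispersion gave a Benjamini-Hochberg adjusted p under 0.05 and the difference was at least 10 points. Of the 36 windows 3 were called, all higher in cMyc-Bcl2, against 2.88% of 40428 autosomal windows called higher and 1.54% called lower. They lay at Pax5 and Gata3. With replicate 2 of cMyc-Bcl2 WT left out 5 windows were called, and limma on M-values, log ratios of methylated to unmethylated reads, called only the Pax5 window.

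The called Pax5 window spans chr4:44677002-44677563 with 30 cytosines and lies 46.3 kb downstream of the gene start, within the gene. Exon or intron was not assigned, since no annotation of this build was used. Methylation was 3.6, 3.86 and 3.19% in MLL-AF9 WT, and 5.18, 3.98 and 3.67% in MLL-AF9 knockin. It was 9.89 and 12.9% in cMyc-Bcl2 WT and 25.2 and 25.7% in cMyc-Bcl2 knockin, from 364 to 1289 reads per library. The 4 cMyc-Bcl2 libraries were above all 6 MLL-AF9 libraries. The model difference was 14.5 points (adjusted p = 0.0002035), and it stayed past both thresholds without any single library, between 13.8 and 15.2 points. Within knockin libraries alone the window differed by 22.3 points (adjusted p = 0.005981 over 47 cytosines). Within WT libraries alone it differed by 8.28 points (adjusted p = 0.08466). The knockin difference was 0.728 points for MLL-AF9 and 14.1 points for cMyc-Bcl2, and the interaction of oncogene and genotype had an adjusted p of 0.2937.

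The other windows of the Pax5 locus with many cytosines lay 6.30 and 6.92 kb downstream of the gene start. The first of them, chr4:44717012-44717520 with 57 cytosines, was at 2.60 to 3.22% in MLL-AF9 WT, 2.76 to 4.55% in MLL-AF9 knockin and 4.34 and 1.90% in cMyc-Bcl2 WT. It was at 8.06% in replicate 1 and 26.6% in replicate 2 of cMyc-Bcl2 knockin, so that its 6.94-point model difference (adjusted p = 0.1415) was carried mostly by 1 library. The second, chr4:44716308-44716994 with 41 cytosines, was at 20.9 and 38.9% in cMyc-Bcl2 knockin and between 2.17 and 11.1% in the other 8 libraries (model difference 12.4 points, adjusted p = 0.06165). Both were singled out for their number of cytosines, after their values were seen. Of the 11 Pax5 windows 6 had all cMyc-Bcl2 knockin libraries above all MLL-AF9 knockin libraries, against 15.2% of all windows, and 1 had all cMyc-Bcl2 WT libraries above all MLL-AF9 WT libraries, against 15.7%. None had cMyc-Bcl2 below, against 25.3% in knockin and 10.3% in WT. The 2 windows upstream of Pax5, 1.38 and 1.49 kb before the gene start, had model differences of 4.14 and 0.315 points. These were made of -1.50 and -3.45 points among WT libraries, where the models overlapped, and 9.77 and 4.08 points among knockin libraries. Their knockin differences were 8.53 and 1.10 points for MLL-AF9 and 19.8 and 8.62 points for cMyc-Bcl2.

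Both called Gata3 windows lay upstream of the gene. The nearer, chr2:9802134-9802988, had 11 cytosines and was 2.33 kb before the gene start. Its methylation was 15.7, 39.2 and 31.0% in MLL-AF9 WT, 29.2, 35.8 and 43.9% in MLL-AF9 knockin, 43.7 and 30.4% in cMyc-Bcl2 WT, and 74.9 and 76.6% in cMyc-Bcl2 knockin. The cMyc-Bcl2 knockin libraries lay apart, and the other 8 overlapped. The model difference was 23.9 points (adjusted p = 0.03172 from the limma-moderated fit), from 87 to 478 reads per library. The adjusted p was above 0.05, up to 0.1071, without replicate 1 of cMyc-Bcl2 WT, either cMyc-Bcl2 knockin library, replicate 1 of MLL-AF9 WT or any 1 of the MLL-AF9 knockin libraries, and 0.153 by limma on M-values.

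The farther Gata3 window, chr2:9804276-9804974, had 10 cytosines and was 4.40 kb before the gene start. It was at 9.47, 6.09 and 3.61% in MLL-AF9 WT, 8.05, 20.3 and 14.95% in MLL-AF9 knockin, 8.90 and 10.9% in cMyc-Bcl2 WT, and 38.7 and 39.8% in cMyc-Bcl2 knockin. Again only the cMyc-Bcl2 knockin libraries were separate from the rest. The model difference was 14.2 points (adjusted p = 0.006421) and held without any single library (adjusted p up to 0.03342), but limma on M-values gave an adjusted p of 0.172. In WT libraries alone the difference was 3.49 points (adjusted p = 0.516), and in knockin libraries alone 24.2 points (adjusted p = 0.02842). Both upstream windows were also called for knockin against WT, by 23.2 and 18.7 points (adjusted p = 0.02939 and 0.008015), against 3.67% of all windows called higher in knockin and 0.0322% called lower. Limma on M-values gave adjusted p-values of 0.252 and 0.1123 for this difference. Without replicate 2 of cMyc-Bcl2 WT neither was called (adjusted p = 0.1262 and 0.05635), and the nearer window also lost its call without replicate 1 of cMyc-Bcl2 WT, replicate 1 of MLL-AF9 WT or either cMyc-Bcl2 knockin library, with the strands of a CpG joined (adjusted p = 0.08585) and at 10 reads per cytosine (14.1 points, adjusted p = 0.06631). Their interactions were not called (31.0 points, adjusted p = 0.374, and 21.3 points, adjusted p = 0.5214).

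The Gata3 window that holds the promoter cytosines printed above, chr2:9800426-9800529 with 14 cytosines, was at 0 to 2.95% in all 10 libraries, and its model difference was 0.0282 points (adjusted p = 0.9937). Windows far into the gene, 20.04 and 21.3 kb downstream of its start (gene length 30876 bases in GRCm38), were at 87.5 to 100% in all libraries.

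**Figure D2:**
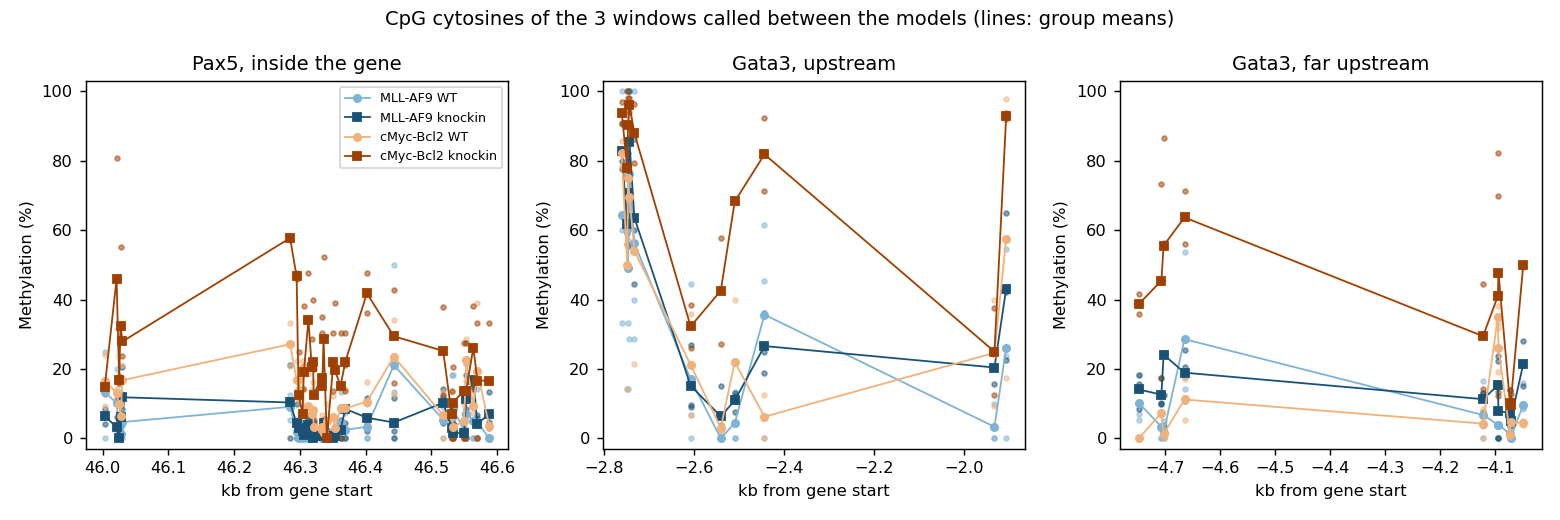
Methylation (%) of single CpG cytosines against distance (kb) from the gene start in the 3 windows called between the models; lines join group means and small points are libraries. The cMyc-Bcl2 knockin line runs above the others over most cytosines, and in the Pax5 panel the cMyc-Bcl2 WT mean of the window (11.4%) lies between it and the MLL-AF9 groups.

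At Ikzf1 the model difference was seen beside the promoter. It was not seen in the promoter cytosines read in all libraries, which were 23 of the 100 listed there. The window that holds the promoter, chr11:11585379-11585996 with 47 cytosines, was at 4.48, 1.02 and 3.30% in MLL-AF9 WT and 2.48, 2.43 and 2.21% in MLL-AF9 knockin. It was at 13.0 and 7.57% in cMyc-Bcl2 WT and 10.6 and 6.24% in cMyc-Bcl2 knockin. Every cMyc-Bcl2 library was above every MLL-AF9 library. The adjusted p was 0.008311, and the difference of 6.68 points was below the 10 points needed for a call. With at least 10 reads per cytosine it was 10.3 points and called (adjusted p = 0.01862).

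Within that window the covered promoter cytosines lay from 249 bases before to 36 bases after the gene start, which reaches past the printed bases. They were nearly unmethylated, with group means of 1.82% ± 0.579 (SD, n = 3) in MLL-AF9 WT, 1.28% ± 0.623 (n = 3) in MLL-AF9 knockin, 1.83% ± 0.331 (n = 2) in cMyc-Bcl2 WT and 0.175% ± 0.248 (n = 2) in cMyc-Bcl2 knockin over 23 cytosines. The 10 cytosines from 549 to 482 bases before the gene start (chr11:11585379-11585446) differed from this. Their mean was 9.16, 2.54 and 2.91% in MLL-AF9 WT, 8.06, 3.45 and 5.27% in MLL-AF9 knockin, 32.4 and 17.6% in cMyc-Bcl2 WT and 28.2 and 16.8% in cMyc-Bcl2 knockin. All 4 cMyc-Bcl2 libraries were above all 6 MLL-AF9 libraries, by 18.5 points on average. Taken singly, 4 of the 10 cytosines were higher in all cMyc-Bcl2 libraries. Among these, chr11:11585420 and chr11:11585421 are the strands of the same CpG. The share of all cytosines or stretches with such an order is not given here. Group means in cMyc-Bcl2 ran from 4.81% at the cytosine chr11:11585404 to 57.1% at chr11:11585421. Within each model the WT and knockin libraries overlapped. This stretch was chosen after its values were seen and has no test of its own, with 162 to 545 reads per library.

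The CpG 508 bases before the Ikzf1 start was singled out because its cytosines had the highest cMyc-Bcl2 means near the gene start. Its high cMyc-Bcl2 values thus follow from that choice. Both strands of this CpG were read. Its first cytosine was methylated in 60 and 33.9% of reads in cMyc-Bcl2 WT and 52.2 and 31.9% in cMyc-Bcl2 knockin, against 0 to 13.3% in the MLL-AF9 libraries. The cytosine on the other strand, 1 base on, was methylated in 81.5 and 32.7% in cMyc-Bcl2 WT and 62.8 and 43.2% in cMyc-Bcl2 knockin, against 5 to 16.7% in MLL-AF9. The fewest reads behind any of these values were 11 and 18. The 11 cytosines between this edge and the promoter, from 407 to 254 bases before the start, were at 0 to 6.71% in all libraries and overlapped between models.

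Mitochondrial cytosines, a guide to incomplete conversion, read as methylated in 0.910 to 2.22% of calls in the cMyc-Bcl2 libraries and 1.82 to 3.20% in the MLL-AF9 libraries, and the part of conversion in the results was not tested. Libraries held 14446933 to 46762220 read calls, with 28229131 or more in each cMyc-Bcl2 library and 31805256 or fewer in each MLL-AF9 library. The part of depth in the results was not tested, beyond the higher read minimums given with the settings.

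**Figure D3:**
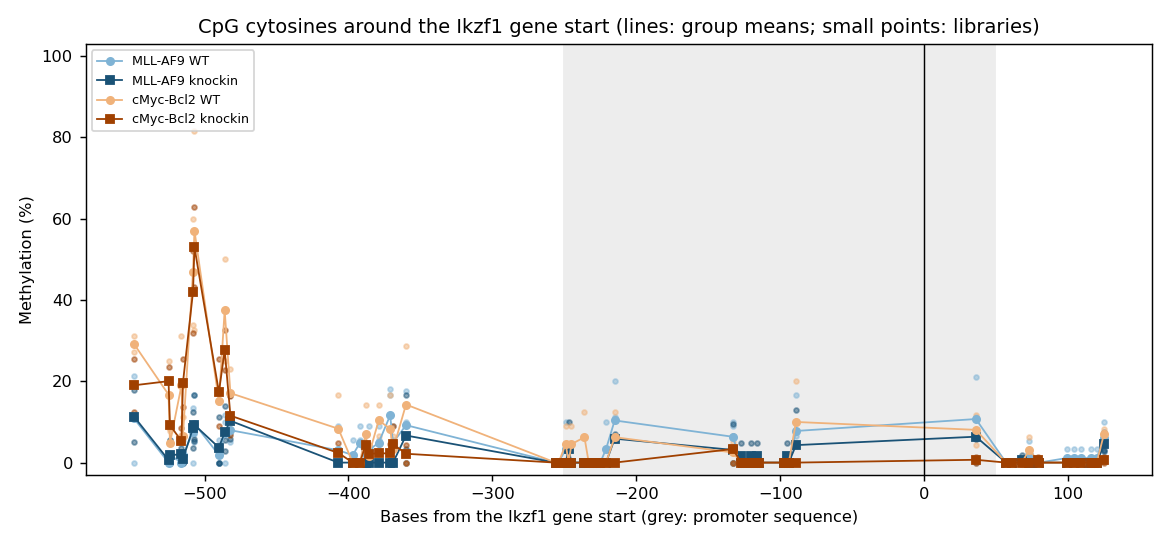
Methylation (%) of CpG cytosines against distance (bases) from the Ikzf1 gene start, with lines for group means, small points for libraries and the promoter sequence in grey. Both cMyc-Bcl2 lines rise at the upstream edge, to 57.1 and 53.0% at the cytosine 507 bases before the start, while all groups are near 0 at most covered promoter cytosines.

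No window at Bcl11b was called between the models over all 10 libraries. The window nearest the placed gene start, chr12:109241266-109241448 with 19 cytosines, was at 15.7, 4.53 and 2.92% in MLL-AF9 WT and 11.4, 13.6 and 5.39% in MLL-AF9 knockin. It was at 3.42 and 5.203% in cMyc-Bcl2 WT and 18.5 and 22.1% in cMyc-Bcl2 knockin (model difference 3.39 points, adjusted p = 0.4172). The cMyc-Bcl2 knockin libraries were above all others. Among knockin libraries alone 1 Bcl11b window was called, chr12:109218289-109218722, at 39.1 and 46.3% in cMyc-Bcl2 against 26.7, 19.4 and 20.4% in MLL-AF9 (20.5 points, adjusted p = 0.03973, and 0.2376 by limma on M-values). The window chr12:109244305-109244395 was called for knockin against WT, by 20.8 points (adjusted p = 0.0484), with 8.93% ± 8.05 (n = 3) in MLL-AF9 WT, 19.1% ± 4.89 (n = 3) in MLL-AF9 knockin, 4.08% ± 2.85 (n = 2) in cMyc-Bcl2 WT and 35.4% ± 12.2 (n = 2) in cMyc-Bcl2 knockin. The adjusted p was 0.09713 by limma on M-values and 0.06307 with the strands of a CpG joined. Leaving out any 1 library except replicate 3 of MLL-AF9 WT ended the call, with adjusted p-values up to 0.2042.

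The Bcl11b result changed when the strands of a CpG were joined, which also changed which positions passed the read minimum. These changes were not tested apart. With both strands joined before the minimum of 5 reads was applied, a choice made after the data were examined, 3 Bcl11b windows were called between the models by the limma-moderated fit. Of these 2 were lower in cMyc-Bcl2, chr12:109155096-109155131 by -11.4 points (adjusted p = 0.001253) and chr12:109213402-109213965 by -14.5 points (adjusted p = 0.01373). The other, chr12:109229615-109229664, was higher by 18.6 points (adjusted p = 0.0006774). As listed, the windows at the latter 2 places differed by -1.35 and 1.25 points. The called windows of Pax5 and Gata3 were called in this setting too. The shares of all windows called that are given above belong to the fit as listed. The counts with strands joined have no such share beside them.

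**Figure D4:**
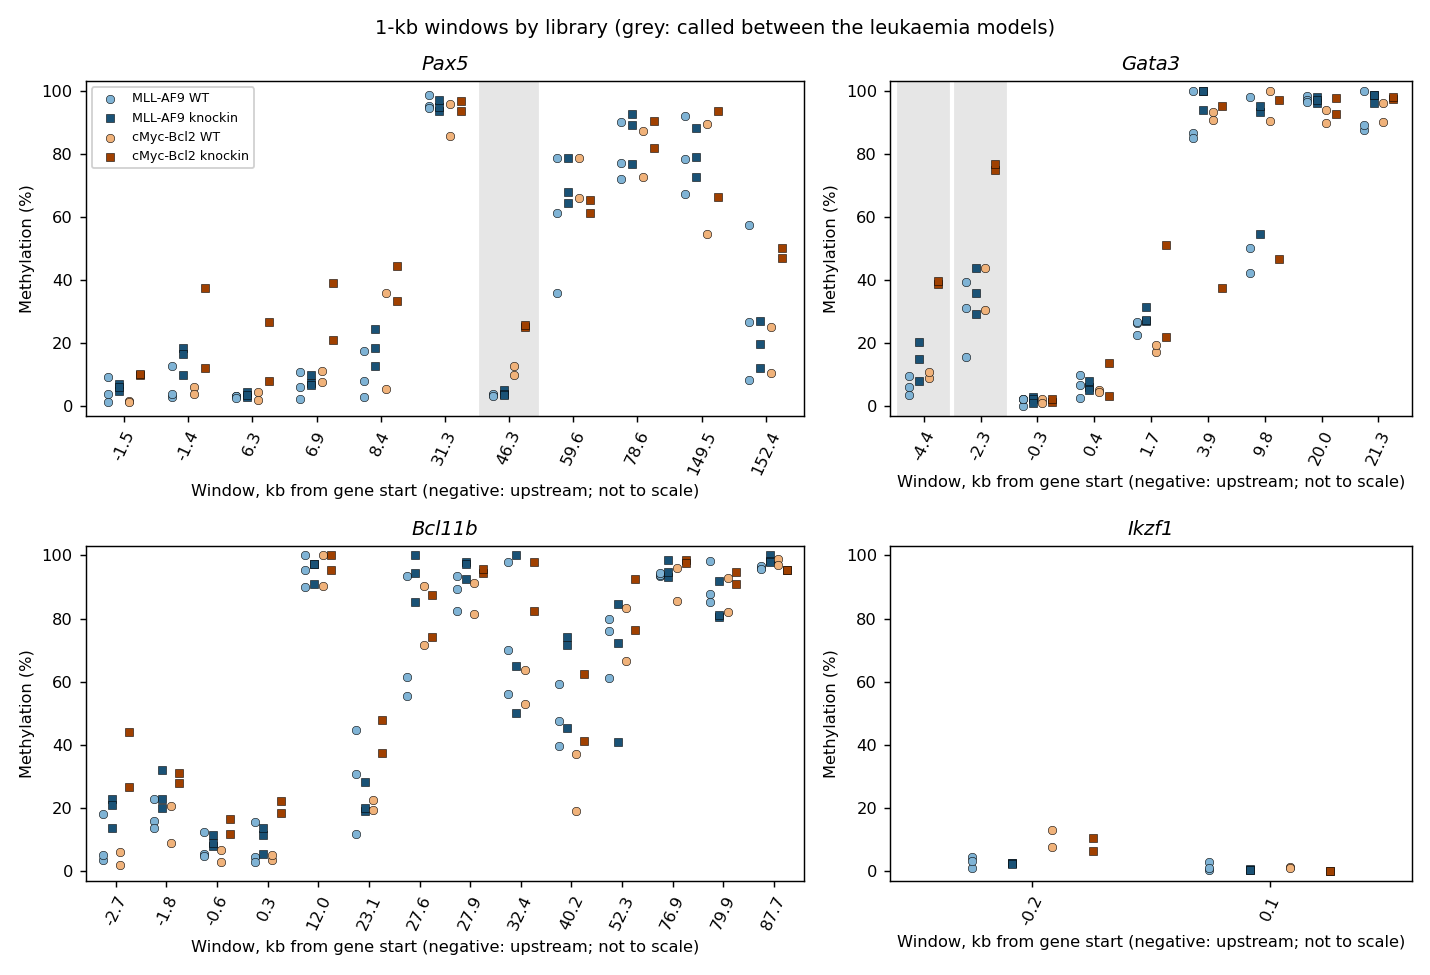
Methylation (%) of the 36 windows in all 10 libraries, ordered by distance from the gene start, with grey bands on the windows called between the models. At Pax5 the window 46.3 kb downstream keeps both cMyc-Bcl2 groups above the MLL-AF9 groups, and at Gata3 the called windows are 2.3 and 4.4 kb upstream.

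Each genotype was also fitted alone, and the difference between genotypes was tested as an interaction. Among the 5 WT libraries 0 of 40 windows were called by the limma-moderated fit (5 had an unadjusted p under 0.05, and limma on M-values also called 0), against 0.105% of all windows called higher and 0.0777% called lower. The 5 windows are 12.5% of the 40, against 12.94% of all windows at an unadjusted p under 0.05. Among the 5 knockin libraries 4 of 45 were called, all higher in cMyc-Bcl2, against 1.84% of all windows called higher and 1.12% called lower. This count was 1 without replicate 2 of cMyc-Bcl2 knockin, 2 without replicate 1 of MLL-AF9 knockin and 0 without replicate 2 or 3 of MLL-AF9 knockin, and limma on M-values called 0 of the 45. These were the Pax5 window, both Gata3 windows and the Bcl11b window named above. The interaction was called by the limma-moderated fit in 0 of 36 windows and in 0 of 40428 over the genome, 0.00% (6 and 4438 had an unadjusted p under 0.05, and limma on M-values called 0 and 1).

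In the 36 windows knockin was above WT in 27 windows in MLL-AF9, with a median difference of 1.79 points, against 75.5% and 1.13 points over all windows. In cMyc-Bcl2 it was above WT in 29 windows, with a median of 8.65 points, against 52.9% and 0.120 points over all windows. No window was called for knockin in MLL-AF9 (0 of 43, with 6 at an unadjusted p under 0.05) or in cMyc-Bcl2 (0 of 62, with 13), and limma on M-values called 0 in each. The windows at an unadjusted p under 0.05 were 13.95% at the loci in MLL-AF9, against 14.84% of all windows. In cMyc-Bcl2 they were 20.97%, against 12.4% of all windows. Over all windows the limma-moderated fit called 0.0515% higher and 0.00215% lower in MLL-AF9, and 0.00140% higher and 0.00% lower in cMyc-Bcl2. In cMyc-Bcl2 the knockin libraries were above the WT libraries without overlap in 19 of the 36 windows, against 24.6% of all windows, and below in 3, against 17.5%. In MLL-AF9 they were above in 2, against 18.6%, and below in 0, against 1.48%.

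The windows with the largest knockin differences, over the cytosines covered in all libraries of that model, did not pass the test. In cMyc-Bcl2 these were chr4:44571131-44571287 at Pax5, from 9.30 and 21.3% in WT to 45.1 and 47.9% in knockin (31.2 points, adjusted p = 0.1865), chr2:9802134-9802989 at Gata3 (28.3 points, adjusted p = 0.2623), and chr12:109209191-109209237 at Bcl11b (35.3 points, adjusted p = 0.2412). At Ikzf1 the largest was -1.19 points (adjusted p = 0.8873). In MLL-AF9 these were chr4:44663938-44663980 at Pax5 (11.6 points, adjusted p = 0.5851, with 0.241 points when replicate 3 and 21.7 points when replicate 1 of MLL-AF9 WT was left out), chr2:9803165-9803242 at Gata3 (18.01 points, adjusted p = 0.339), chr12:109214010-109214036 at Bcl11b (23.0 points, adjusted p = 0.358) and chr11:11586001-11586053 at Ikzf1 (-0.945 points, adjusted p = 0.5148). Leaving out 1 library gave 17.9 to 38.8 points for the Gata3 window in cMyc-Bcl2, and 11.8 to 25.3 and 15.7 to 34.8 points for the Gata3 and Bcl11b windows in MLL-AF9. Libraries of the MLL-AF9 genotypes overlapped in each of the first 3 of these.

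**Figure D5:**
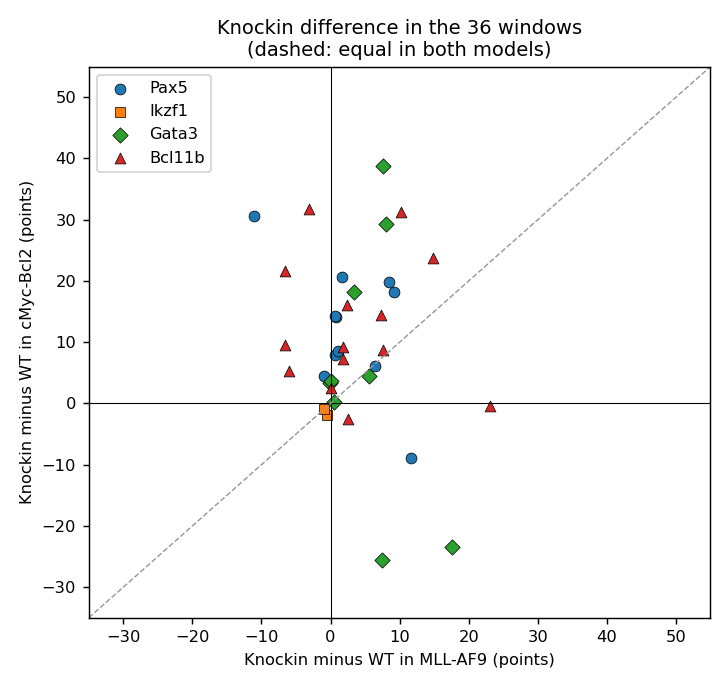
Knockin minus WT difference (points) in cMyc-Bcl2 against the same in MLL-AF9 for the 36 windows, by locus, with a dashed line where both are equal. Most Pax5 and Bcl11b windows lie above the dashed line, the 2 Ikzf1 windows lie near 0, and the Gata3 windows range from -25.6 to 38.7 points in cMyc-Bcl2.

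Promoters of related genes were read for lists of lymphoid, family and myeloid genes. None of 17 B-lineage promoters was placed and covered, so the list has no value. Of 17 T-lineage genes 4 were covered, and in 2 all cMyc-Bcl2 libraries lay above all MLL-AF9 libraries of the same genotype, against 3.49% of 6513 placed promoters with that order and 4.21% with the opposite order. These were Lef1 and Tcf7, partner factors of beta-catenin that act in early T cells. The Lef1 promoter was at 4.47% ± 1.45 (n = 3) in MLL-AF9 WT, 5.80% ± 1.75 (n = 3) in MLL-AF9 knockin, 11.8% ± 0.184 (n = 2) in cMyc-Bcl2 WT and 12.1% ± 4.23 (n = 2) in cMyc-Bcl2 knockin. The Tcf7 promoter was at 0.743% ± 0.359, 2.01% ± 0.425, 6.62% ± 3.47 and 4.36% ± 1.16 in the same order. The other covered T-lineage promoters, Id2 and Runx3, differed by -0.169 and 0.502 points.

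Among 18 relatives of the 4 genes 5 were covered, and only Gata2, a factor of stem and progenitor cells, had libraries without overlap between the models (3.87 points higher in cMyc-Bcl2, with 2.05 in WT and 5.69 in knockin). Bcl11a, Pax2, Pax6 and Gata5 overlapped, with differences of 0.0455, 0.811, 0.401 and 7.86 points. Of 15 myeloid promoters 1 was covered, Cebpb, at -0.454 points, and of 4 genes of other organs none was. The promoters of Ikzf1 and Gata3 themselves differed by -0.546 and -0.0445 points, beside a median of -0.213 over all 6513. In 1 of the relatives, Pax6, and in none of the other lists' covered promoters, all knockin libraries lay above all WT libraries of the same model, against 3.78% of the 6513.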

How the data were processed

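Groups came from the oncogene and knockin labels. Each position of the deposited files carries 2 whole-number counts, taken as methylated, then unmethylated reads. Processing tools named in the submitters' processing notes are methylKit, Bismark (0.7.4), Trim Galore (0.2.2) and CASAVA, and the build is mm9. How they were set is not stated there. The files list both strands of a CpG apart, and each was counted once as listed. Percent methylation was computed from the deposited counts, with each cytosine weighted once in locus means and reads summed in 1000-bp windows.

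Locus means were compared by exact permutation within strata. Windows were fitted by a quasi-binomial logistic model with dispersion moderated by limma 3.58.1 (R 4.3.3), held at 1 or above, an F-test and Benjamini-Hochberg adjustment over all autosomal windows, after tests on simulated data. Python 3.11.15, numpy 2.4.6, pandas 2.3.3 and scipy 1.17.1 did the rest. Correlations of cytosine levels between libraries of a group were 0.931 to 0.969, and no libraries were merged.

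Promoters were placed without coordinate conversion, by CpG spacing, with at least 6 listed positions, 90% of them on CpGs and a unique best place. Of 31396 sequences 16621 were placed, and 79.25% of these stood in the order of their neighbours. The gene lists used a stricter rule added after seeing the data (at least 12 positions and a lead of 3), which placed 12440, 99.87% of them in order. The loci and gene lists were chosen with earlier results of these data known. Named windows were those holding a promoter, those called between the models, and the largest knockin difference in each model. Named list promoters were those without overlap. Alternatives were read minimums of 10 and 20, 500-bp windows, M-values with an offset of 0.5, other bins and thresholds, leaving out each library and, added after seeing the data, joining the strands. The labels give no replicate numbers, so numbers were assigned in the order of the sample records and only name libraries.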

Additional observations from a re-analysis of the deposited data

Results flagged for a closer look

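The Bcl11b window chr12:109153910-109153995, 87.7 kb downstream of the placed gene start, was marked because its libraries moved in opposite directions with the knockin. The MLL-AF9 libraries went from 96.0, 96.5 and 95.8% in WT to 100, 98.1 and 97.9% in knockin, and the cMyc-Bcl2 libraries from 98.7 and 97.0% to 95.4 and 95.3%. The knockin difference was thus lower in cMyc-Bcl2 by -5.03 points. This order of the libraries was not tested, and in the limma-moderated fit the interaction of this window had an adjusted p of 0.3957. Over all windows knockin lay above WT without overlap in 18.6% in MLL-AF9, and below WT in 17.5% in cMyc-Bcl2. The share of windows with both orders is not given here. All values of this window lay from 95.3 to 100%, near the upper limit. Group means moved apart by more points in other windows, none of them called as an interaction. Among these, MLL-AF9 and cMyc-Bcl2 changed by 17.55 and -23.4 points at chr2:9790416-9790472 and 7.47 and -25.6 at chr2:9796284-9796299 of Gata3. At Pax5 chr4:44571131-44571179 they changed by -11.15 and 30.7 points. In the Gata3 windows the cMyc-Bcl2 knockin libraries lay far apart, with 95.2 and 37.5% at the cytosine chr2:9796284.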

How the results depend on the processing

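With 20 reads per cytosine the model difference was 5.31 points at Pax5 (exact permutation p = 0.23) and 17.8 at Gata3 (exact permutation p = 0.02), and the knockin difference 8.89 at Gata3 (exact permutation p = 0.483) and 23.4 at Bcl11b (exact permutation p = 0.05). These values at 20 reads rested on few cytosines, all within 1 window of each locus, and no Ikzf1 cytosine had 20 reads in all 10 libraries. With 10 reads the Gata3 model difference was 7.43 points (exact permutation p = 0.03) and that of the Ikzf1 promoter -1.68. With each window weighted once the model differences were 4.10 at Pax5 and 5.41 at Ikzf1 and the knockin differences 5.22 at Gata3 and 5.45 at Bcl11b, none of them past 0.05 any longer, and the knockin difference at Ikzf1 was 2.33, reversed. With the strands joined the Gata3 knockin difference was 8.02 (exact permutation p = 0.05). The cause was not tested. Leaving out 1 library gave 6.54 to 10.5 points for the Pax5 model difference and -1.71 to 0.224, 5.29 to 10.01 and 6.90 to 8.49 for the knockin differences of Ikzf1, Gata3 and Bcl11b.

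Of the windows at the 4 loci, 1 was called between the models at a minimum of 20 points, 1 by limma on M-values, 0 at 20 reads and 6 with strands joined, 4 higher and 2 lower, and 2 to 5 with 1 library left out. In knockin libraries 0 were called by limma on M-values, 2 at 10 reads, 0 at 20 reads, 2 in 500-bp windows and 0 to 5 with 1 library left out. For knockin against WT 0 were called by limma on M-values, 1 at 10 reads, 0 at 20 reads, 0 in 500-bp windows, 1 with strands joined and 0 to 3 with 1 library left out. At 20 reads fewer windows were tested, 2 at the loci over all libraries. The shares of all windows given earlier belong to the main fits, so these alternative counts have no share over all windows beside them. The share of stretches with knockin above WT was 15.1% at 50 kb, 22.2% at 200 kb and 15.7% at 10 reads. The Gata3 promoter window lay between -0.341 and 0.368 points with 1 library left out. The Ikzf1 window's knockin difference in cMyc-Bcl2 lay between -2.44 and 0.0660 points then, and was 0.0324 at 20 reads. No paired analysis was possible because the labels give the libraries no replicate numbers and those used here only name libraries. The cMyc-Bcl2 groups have 2 libraries each, which limits every comparison within that model.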
